A study of Homo sapiens with 9 samples.

Results

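Of 40703 merged regions of open chromatin in 4 peak lists from Jurkat cells, 7419 (18.2%) had a peak in the list labelled SW rottlerin and in none of the lists labelled NS DMSO, SW DMSO and NS rottlerin. Peaks on chromosomes 1 to 22, X and Y that overlapped or touched were joined, and the 7419 were chosen by the presence of a called peak in 1 list and its absence from the other 3. Jurkat clone E6-1 is an established human T cell leukaemia line, used as a model of T cell activation and here of transcriptional memory. Open chromatin was measured by formaldehyde-assisted isolation of regulatory elements (FAIRE-seq), which recovers DNA that is free of nucleosomes, and peaks were called against a total input library mixed from unstimulated and stimulated cells. The series holds 9 samples with 1 library each. Peak lists of 4 were used, and 5 samples were not analysed here.

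By the labels, NS cells were not stimulated, and SW cells were stimulated for 4 h with PMA (a phorbol ester that activates protein kinase C) and ionomycin (a calcium ionophore, the other arm of T cell activation), washed and cultured for 1 day without the stimulus. The DMSO cells received the solvent, and the rottlerin cells received 15 μM of this kinase inhibitor for 1 h beforehand. The study's methods give a shorter stimulation, and they describe peak calling in the DMSO-treated samples, whereas the labels give 2 of the 4 lists to rottlerin-treated cells. Both cannot hold. Before any chromosome was left out, the 4 lists merged into 40731 regions, of which 28 lay off the chromosomes used. Both totals are those that the methods give for the union of NS, ST (stimulated), SW and RS (stimulated again) cells, all treated with DMSO, so the lists labelled rottlerin may hold peaks of DMSO-treated cells in another of these states. Groups were still taken from the labels, and the lists are called by them alone. Which state each list holds is not settled, and no value below is attributed to rottlerin or to stimulus withdrawal. All values rest on 1 library per list, so the error between replicates is not known and no p-value is given. Shares carry 95% Wilson intervals, which cover counting error alone.

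The list labelled SW rottlerin was the longest, with 30409 peaks covering 11.5 Mb, against 18977 to 23835 peaks and 6.69 to 8.51 Mb in the others. Of its 30321 regions, 24.5% were in no other list, against 8.77% to 16.8% for the other 3. With equally many peaks taken from every list, the highest-scoring ones, 2541 regions remained in the SW rottlerin list alone. The depth of the libraries is unknown, so a region without a peak in a list is a region that was not called there. The labelled cell type was checked at gene starts. In the SW rottlerin list a region lay within 1 kb of the start of 8 of 11 T cell genes (among them *CD3D*, *CD3E*, *CD247*, *LCK* and *ZAP70*) and of 5 of 6 genes of T cell leukaemia, and of 1 of 7 B cell genes (*EBF1*), 0 of 6 myeloid and 0 of 5 erythroid genes. The other lists held 7 or 8 T cell genes and the same numbers of B cell, myeloid and erythroid genes.

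When a T cell is activated, calcium entry lets calcineurin move NFAT into the nucleus, protein kinase C and MAP kinase signals raise AP1 (FOS and JUN dimers) and NFκB, and EGR and NR4A factors are made within the first hours. NFAT binds DNA alone or side by side with AP1 at composite elements, best known from cytokine genes. RUNX, ETS and GATA factors bind regulatory DNA of T cells whether or not they are activated. These families have short recognition sequences, which were sought as exact words on both strands in the central 300 bp of each region. A match is a description of the DNA and does not show that the factor was bound.

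The sequences below show what such a region looks like. First are 10 of the 47 regions with an NFAT-AP1 composite word (GGAAA, any 3 bases, then TGANTCA), those with the highest scores, read 5′ to 3′ on the strand of the word from Hg19 (GRCh37). The capitals mark the composite, whose second part is the AP1 word TGACTCA or TGAGTCA in all but the *BTG1* sequence. Each is named by the nearest protein-coding gene.

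SLC27A2: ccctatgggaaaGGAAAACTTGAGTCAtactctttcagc
PUS7L: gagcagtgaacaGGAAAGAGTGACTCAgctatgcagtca
AAK1: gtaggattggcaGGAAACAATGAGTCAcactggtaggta
SRGN: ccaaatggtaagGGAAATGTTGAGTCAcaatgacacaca
MAGI1: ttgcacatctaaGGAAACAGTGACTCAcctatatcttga
ICE1: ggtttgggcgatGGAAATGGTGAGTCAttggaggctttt
GDI2: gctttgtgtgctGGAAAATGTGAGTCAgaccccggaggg
RNF175: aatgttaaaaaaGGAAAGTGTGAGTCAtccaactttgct
BTG1: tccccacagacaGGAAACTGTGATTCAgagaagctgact
PGM2: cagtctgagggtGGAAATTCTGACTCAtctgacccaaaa

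The 10 have nearest coding genes of several kinds, whose starts lay 1.02 to 66.5 kb away. *SRGN* encodes the proteoglycan of secretory granules, *MAGI1* a junction scaffold, *BTG1* an antiproliferative protein, *SLC27A2* a fatty acid transporter and *AAK1* an endocytic kinase. Their positions and scores, where the score rises with the significance of a peak (its q-value on a −log10 scale, times 10), are as follows. The *SLC27A2* sequence is chr15:50512167-50512205 and its region scored 69. The *PUS7L* sequence, on chr12:44086048-44086086, came from a region with a score of 65. At *AAK1* it was chr2:69843940-69843978 on the minus strand, with a score of 63. The other 7 regions scored 45 to 62. Of the 10 regions, 6 were intronic, 3 intergenic and 1 upstream of a gene, *GDI2*.

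Next are 4 single regions that the results return to, written on the plus strand. The first is the central 300 bp of the highest-scoring region, chr18:3069784-3070083 in an intron. Its nearest coding start is that of *LPIN2* (a phosphatidate phosphatase), 56.8 kb away. The second is in *BACH2*, whose product is a repressor that binds AP1-like sites, at chr6:90958806-90959009. Capitals mark AP1 words and the NFAT words TGGAAAA and AGGAAAA with their complements.

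LPIN2: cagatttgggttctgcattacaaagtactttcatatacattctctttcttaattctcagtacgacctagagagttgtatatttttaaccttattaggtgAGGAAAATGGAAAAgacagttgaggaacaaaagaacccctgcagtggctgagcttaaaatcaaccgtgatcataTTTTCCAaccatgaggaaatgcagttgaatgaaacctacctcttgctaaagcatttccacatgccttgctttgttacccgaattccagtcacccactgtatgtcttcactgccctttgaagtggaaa
BACH2: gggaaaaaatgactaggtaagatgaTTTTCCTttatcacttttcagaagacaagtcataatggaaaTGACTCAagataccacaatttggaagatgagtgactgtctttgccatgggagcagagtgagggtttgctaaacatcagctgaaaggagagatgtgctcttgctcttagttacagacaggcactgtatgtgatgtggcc

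The *LPIN2* stretch holds 3 NFAT words, 2 of them side by side. In the *BACH2* region the AP1 word directly follows a GGAAA, with no base between them. The third region lies 5.99 kb upstream of *EGR1*, a zinc finger gene of the immediate early response, and its central 300 bp are chr5:137795029-137795328, with NFAT words and the ETS word CAGGAAGT in capitals. The fourth is the promoter of *TNF*, shown from the edge of the region to the base before the first annotated start, chr6:31543117-31543341. It holds no 7-base NFAT word, and the capitals mark the shorter core GGAAA, here in its complement TTTCC.

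EGR1: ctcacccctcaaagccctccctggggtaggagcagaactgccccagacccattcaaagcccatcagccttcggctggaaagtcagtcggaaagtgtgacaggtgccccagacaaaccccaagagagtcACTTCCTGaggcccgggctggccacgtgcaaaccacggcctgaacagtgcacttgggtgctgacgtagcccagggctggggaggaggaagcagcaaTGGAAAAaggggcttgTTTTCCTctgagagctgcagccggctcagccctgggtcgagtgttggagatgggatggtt
TNF: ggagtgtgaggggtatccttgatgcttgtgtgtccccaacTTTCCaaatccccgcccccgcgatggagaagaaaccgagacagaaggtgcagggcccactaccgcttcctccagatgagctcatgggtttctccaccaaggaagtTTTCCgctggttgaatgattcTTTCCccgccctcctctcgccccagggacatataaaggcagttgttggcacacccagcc

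The regions were small and weak, which the choice favours. Their score had a median of 31 (quartiles 21 and 44, range 10 to 212), and their fold enrichment over input a median of 3.53 (range 2.25 to 8.79). The median width was 218 bp, from 161 to 2173 bp. Regions in 1 of the other lists alone were alike in these respects, with median scores of 29 to 32 and median widths of 201 to 226 bp. Regions in all 4 lists had a median score of 119 and a width of 445 bp. The lowest score among the 7419 was 10, and 82 of them had it, among them regions near *PAGR1*, *ARHGAP9* and *PRKCA*. The study's methods give 0.05 as the highest q-value allowed, but the lists hold some peaks above it. With that limit on every list, 7193 regions were selected. Just outside the selection were 9 regions that missed it through 1 other peak with a score of 10. The strongest of these lay near *GZMA*, granzyme A, with a score of 87 in the SW rottlerin list. Near *MKI67*, the proliferation marker Ki-67, a selected region lay 1 bp from a region of another list, and 19 of the 7419 lay within 100 bp of one.

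The 7419 regions lay mostly away from gene starts. Introns held 61.3% and intergenic sequence 17.2%, together 78.5% (77.6–79.4). Regions in 1 of the other lists alone gave 79.1% to 82.5%, and regions common to the 4 lists 49.9% (49.0–50.8). To a protein-coding start, the median distance was 22090 bp, against 23930 to 25948 bp for the other single lists and 353 bp for all 4. Yet 950 regions (12.8%, 12.1–13.6) were within 1 kb of such a start, a larger share than the 6.77% (5.68–8.04), 8.87% (7.96–9.86) and 6.46% (5.66–7.37) of regions in the SW DMSO, NS rottlerin and NS DMSO lists alone. None of these intervals overlapped that of the SW rottlerin list. The 12.8% was still smaller than the 24.3% over all 40703 regions. It was also smaller than the 18.2% of regions that the SW rottlerin list shared with 1 or 2 others, and the 54.6% of regions in all 4 lists.

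Base composition followed the same order. CpG-island-like sequence (GC over 50% and observed over expected CpG above 0.6) made up 10.1% (9.39–10.8) of the regions, 3.51% to 6.07% of those in 1 other list alone and 50.2% of those in all 4. Over all 40703 regions the share was 21.0%. Among the 950 regions near a start it was 58.2% (55–61.3), against 32.5% to 47.7% in the other single lists. Over all regions near a start it was 73.9%. Most of the 7419 were CpG-poor, and 57.6% held at most 3 CpG in 300 bp. With the higher-scoring 50% of each list, the CpG-island-like share was 17.4%.

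The regions did not sit closely beside regions of other lists. Their median distance to the nearest one was 15676 bp, edge to edge. Within 10 kb of one were 39.6% (38.5–40.7), and for the other single lists this was 39.4% to 41.6%. By chromosome, the selected share of all regions ranged from 12.0% (10.4–13.7) on chromosome 19 to 22.1% (19.4–25.1) on X, leaving aside Y with 2 of 18.

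NFAT words were more frequent in these regions than in the others. An NFAT word was present in 2411 (32.5%, 31.4–33.6). The share was 23% (21.1–25.0) in the SW DMSO list alone, 18.9% (17.6–20.3) in the NS DMSO list alone and 17.4% (16.1–18.7) in the NS rottlerin list alone. It was 15.4% (14.7–16.1) in regions of all 4 lists and 21.2% over all 40703 regions. The DNA 1 kb to either side of the 7419 mid-points gave 21.1% (20.5–21.8), so the centre held 1.54 times the flank. In the other single lists the centre held 0.83 to 1.02 times the flank. Of the selected regions, 466 (6.28%) held 2 or more NFAT words and 68 (0.917%) held 3 or more. Such multiples were not counted in the other groups.

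The NFAT word is rich in A and T, and GC content differs between groups. Among regions of 40% GC or less, 44.9% of the selected regions held it, against 22.9% to 29.0% in the other single lists and 29.1% in all 4 lists. Between 45% and 50% GC the values were 30.7%, 12.8% to 20.2% and 20.7%. Above 60% GC they were 9.3%, 5.6% to 10.1% and 7.2%, so that the ordering was lost there. With the shorter word GGAAAA, added after the data were seen, the share was 40.6% in the selected regions, 24.1% to 31.9% in the other single lists and 24.8% in all 4.

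**Figure D1:**
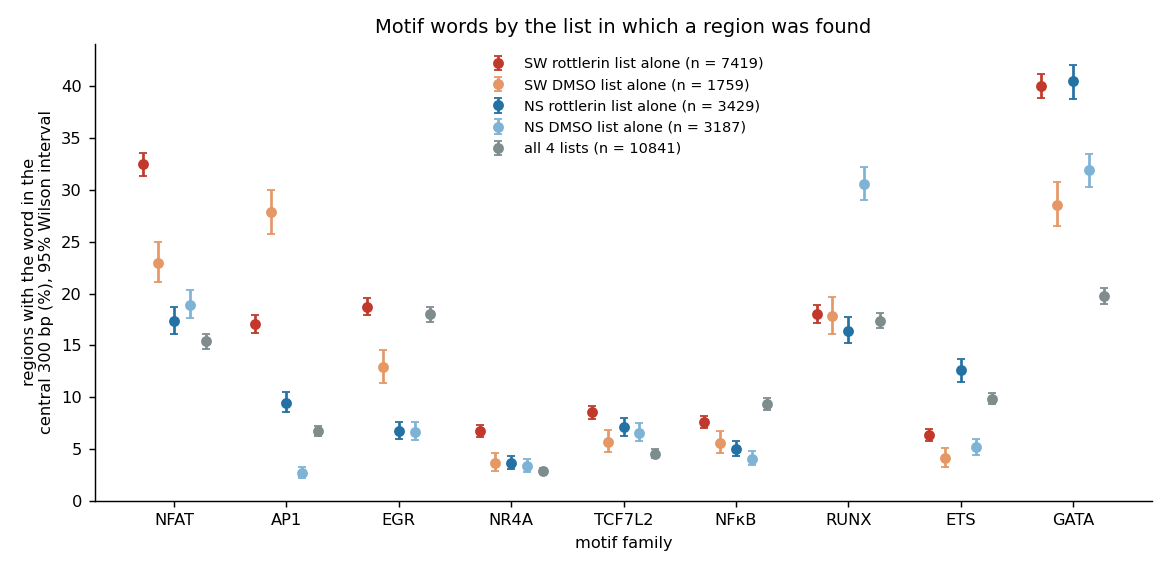
Share of regions (%) with a word of each motif family in the central 300 bp, for regions found in 1 list alone and in all 4 lists, with 95% Wilson intervals. The SW rottlerin list (dark red) is highest for NFAT at 32.5%, while AP1 is highest in the SW DMSO list alone at 27.9%.

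AP1 words were present in 1265 regions (17.1%, 16.2–17.9), 3.48 times the flank. This was more than in the NS rottlerin list alone (9.48%, 8.54–10.5) or the NS DMSO list alone (2.67%, 2.16–3.29), and less than in the SW DMSO list alone (27.9%, 25.8–30). The AP1 share was 13.2% over all 40703 regions and 19.4% in regions that the SW rottlerin list shared with 1 or 2 others. If the SW DMSO list is not used in the selection, the AP1 share of regions in the SW rottlerin list alone becomes 21.6%.

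EGR words (GTGGGCG or GTGGGTG) were present in 1389 regions (18.7%, 17.9–19.6), 2.23 times the flank. Among the other single lists the share was 12.9% (11.4–14.6) in SW DMSO and 6.74% and 6.68% in NS rottlerin and NS DMSO. Over all 40703 regions it was 15.1%. Regions of all 4 lists held 18.0% (17.3–18.7), but these are richer in GC, and the EGR word overlaps the SP/KLF word GGGCGG. Between 45% and 50% GC, 22.8% of the selected regions held an EGR word, against 14.3% of those in all 4 lists and 6.7% to 18.3% in the other single lists. NR4A words (AAGGTCA) were found in 6.74% (6.19–7.33), against 3.36% to 3.64% in the other single lists, 2.83% in all 4 and 4.21% over all regions. The selected regions held 1.30 times their flank (5.18%). The other groups lay below theirs, at 0.637 to 0.719 times in the other single lists and 0.519 times in all 4. TCF7L2 words (ATCAAAG) were found in 8.53% (7.92–9.19), against 5.69% to 7.12% and 4.55%.

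NFκB consensus words occurred in 7.60% (7.02–8.23), more than the 4.05% to 5.57% of the other single lists and fewer than the 9.33% of regions in all 4 lists. Over all 40703 regions the NFκB share was 7.28%, within the interval of the selected regions. The lineage factors gave another order. ETS words (CCGGAAGT or CAGGAAGT) were present in 6.34% (5.80–6.91) of the selected regions, 3.28 times the flank. The ETS share was 12.6% (11.5–13.7) in the NS rottlerin list alone and 9.84% in all 4 lists. It was lower in the SW DMSO list alone (4.09%) and in the NS DMSO list alone (5.18%, with an overlapping interval). GATA words (AGATAA or TGATAA) were present in 40% (38.9–41.2), much as in the NS rottlerin list alone (40.5%, 38.8–42.1) and more than in the SW DMSO (28.6%) or NS DMSO (31.9%) list alone. RUNX words (TGTGGTT or TGCGGTT) were present in 18.0% (17.2–18.9), 3.12 times the flank. The highest RUNX share was that of the NS DMSO list alone, 30.6% (29.0–32.2). Over all 40703 regions the shares were 8.57% for ETS, 31.5% for GATA and 19.7% for RUNX words.

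E-box words differed from one another. CACCTG, read by E proteins and by ZEB repressors, was found in 17.1% (16.3–18.0) of the selected regions, or 0.688 times their own flank (24.9%, 24.2–25.6). The NS rottlerin list alone was alike, with 17.5% (16.3–18.8) and 0.671 times its flank, while the share was 23.9% in the SW DMSO list alone and 39.8% (38.1–41.5) in the NS DMSO list alone. CAGCTG was found in 15.4% and CATCTG in 22.8% of the selected regions, 1.30 and 1.15 times the flank, against 23.9% and 26.2% in the NS DMSO list alone. SP/KLF words (GGGCGG), which are common at CpG-rich gene starts, were present in 14.5% (13.7–15.3), 1.95 times the flank, against 7.72% to 9.66% in the other single lists and 45% in all 4. Over all 40703 regions the SP/KLF share was 22.6%. STAT words (TTCNNNGAA) occurred in 10.3% with 9.39% in the flank, IRF words (GAAA, any 2 bases, GAAA) in 6.58% with 5.16%, and the cyclic AMP response word TGACGTCA in 0.634%. The word of CTCF, the boundary factor, occurred in 2.33% (2.01–2.70), between the values of the NS DMSO list alone (2.07%) and the SW DMSO list alone (4.32%). It was rare in the flank (0.0944%), so the centre held 24.7 times the flank, against 14.7 to 76.0 times in the other single lists.

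**Figure D2:**
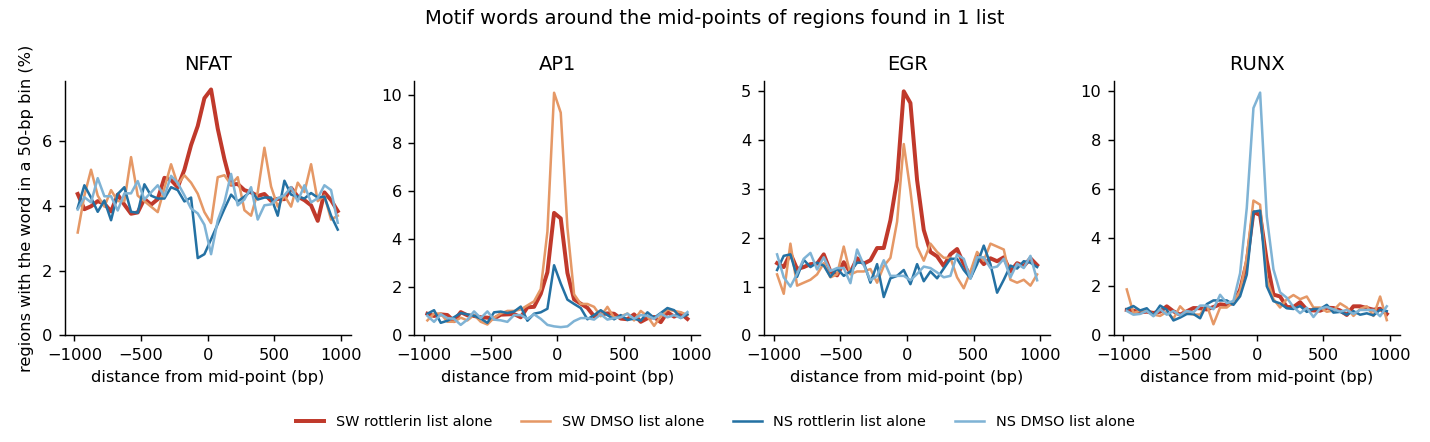
Share of regions (%) with a word starting in each 50-bp bin, against distance from the mid-point in bp, for regions found in each of the 4 lists alone. NFAT words rise to 7.60% at the centre of regions of the SW rottlerin list (dark red) and do not rise in the other lists, whereas RUNX words rise in all 4.

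The words gathered at the mid-points. In the central 50-bp bins, 7.33% and 7.60% of the selected regions had an NFAT word, against 3.54% to 4.56% in bins over 500 bp away. The same bins gave 3.47% to 3.81% in the SW DMSO list alone and 2.51% to 3.42% in both NS lists alone, at or under the values far from their mid-points. AP1 words rose from 0.553% to 0.970% far away to 5.10% at the centre, and EGR words from 1.23% to 1.68% up to 5.00%. At least 1 of NFAT and AP1 was present in 44.4% of the selected regions. None of NFAT, AP1, EGR, ETS, GATA, RUNX and NFκB was present in 1468 (19.8%).

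The NFAT and AP1 shares changed little with peak strength. In 4 groups of rising score, from 10 to 21 up to 45 to 212, the NFAT share was 32.0%, 34.2%, 30.5% and 33.3%, and the AP1 share 16.2%, 17.2%, 17.7% and 17.1%. EGR words became more frequent, from 15.6% (14.0–17.3) to 22.4% (20.5–24.4), together with CpG-island-like sequence, from 7.41% to 14.0%, and gene starts within 1 kb, from 11.2% to 17.4%. The 950 regions near a start differed from the rest. They held EGR words in 25.7% (23–28.6) and NFκB words in 14.3% (12.2–16.7), against 17.7% and 6.62% farther out. NFAT, AP1 and GATA words were found in 18.3%, 7.16% and 15.9% of them, against 34.6%, 18.5% and 43.6%.

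NFAT and AP1 words were not found together more often than apart. An NFAT word was present in 30.4% (28.0–33.0) of the 1265 regions with an AP1 word and in 32.9% (31.8–34.1) of the 6154 without. The distances between the 2 words were not evenly filled. With GGAAA before the AP1 word on the same strand, 36 pairs had exactly 3 bases between them, against a median of 8 and a highest value of 20 (no base between) for the other spacings up to 30 bases. In all other regions 41 pairs had 3 bases, against a median of 21, and the commonest spacing there was no base between, with 63. With GGAAA after the AP1 word, no spacing in the selected regions had more than 15 pairs.

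**Figure D3:**
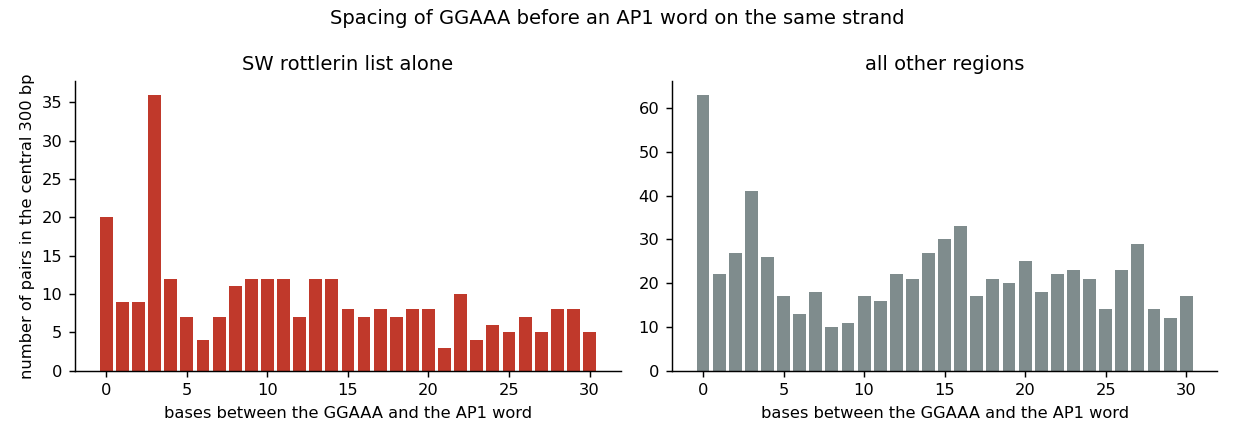
Number of pairs of GGAAA and a following AP1 word on the same strand, by the number of bases between them, in the central 300 bp of regions of the SW rottlerin list alone (left) and of all other regions (right). A spacer of 3 bases holds 36 pairs on the left, where the other spacers have a median of 8, and 41 pairs on the right, where no base between them is commonest with 63.

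That spacing is the one in the composite word printed above. The composite was found in 47 of the selected regions (0.634%, 0.477–0.841), 42 of them in introns or intergenic sequence and 1 within 1 kb of a coding start. It was found in 3 of 1759 regions of the SW DMSO list alone (0.171%, 0.058–0.5), in 6 of 10841 regions of all 4 lists (0.0553%) and in 47 of 12061 regions that the SW rottlerin list shared with 1 or 2 others (0.390%, 0.293–0.518). In the NS rottlerin and NS DMSO lists alone it was found in 0 of 3429 and 0 of 3187 regions, which allows shares of up to 0.0875% and 0.0941% (3 regions of each total, a simpler limit than the Wilson interval). In the flanks of the selected regions it was found in 0.0472%.

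The 20 highest-scoring regions mostly lay away from gene starts. Of these, 11 lay in introns, 4 in intergenic sequence and 4 within 1 kb of a coding start. The first, 56.8 kb upstream of a start of *LPIN2*, had a score of 212, a fold enrichment of 8.54 and 7 NFAT words over its 587 bp. The second, 72.8 kb from *ANXA1* (annexin A1, an anti-inflammatory phospholipid-binding protein), scored 183 with 2 AP1 words and 1 NFAT word, and no region of another list lay within 74425 bp. A region 4.54 kb downstream of the start of *DOK2*, an adaptor that restrains T cell receptor signals, scored 153 and held 1 AP1 and 1 NFAT word.

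The nearest genes of the others were of many kinds. A region 56 bp from a start of *ST6GAL1*, a sialyltransferase, scored 152. The region 8.14 kb upstream of *LAPTM5*, a lysosomal protein that lowers antigen receptor levels, scored 133, and 1 near *RUNX1*, 55.7 kb upstream of a start, scored 120. A region 10.2 kb from *FCRL5*, an Fc receptor-like gene of B cells, scored 122. The *TNF* promoter region scored 132 with a fold enrichment of 5.66. The rest of the 20 are named by the nearest coding start, with the score in brackets. They were *PREP* (142), *EPHA10* (140), *ACVR1* (137), *FIG4* and *AKAP1* (131 each), *LMO4* and *SLCO3A1* (127 each), *SFRP2* (126), *DNM3* (121) and *RBBP8*, *OBI1* and *OSCP1* (116 each). That start was 571 kb away for *LMO4*, 216 kb for *SLCO3A1*, 133 kb for *SFRP2*, 113 kb for *FIG4* and 56.9 kb for *PREP*. For the others it was within 50 kb. Over their whole width, 12 of the 20 held an NFAT word, 4 an AP1 word and 7 neither. These counts are not comparable with the shares above, which are for the central 300 bp.

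Some genes had many of the regions around them. Within 50 kb of a start, *ARHGEF3* (a guanine nucleotide exchange factor) had 10 of its 24 regions in the SW rottlerin list alone, *ELMO1* (a partner of DOCK2 in migration) 9 of 23, and *NCR3* (the receptor NKp30) 8 of 16. *MICAL2*, *SIPA1L2* and *FAM107B* had 7 each. *NCR3* lies beside *TNF*, *LTA*, *LTB* and *LST1*, which each had 7 of 16 and count largely the same regions. Of 19794 protein-coding genes, 35.2% had at least 1 selected region within 50 kb. Of the regions near any of these genes, 16.9% were selected. The genes named here were picked for the highest counts among them all, so high shares follow in part from the choice.

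Cytokine genes had the largest share of selected regions among 18 gene lists, none of which gets a test, since the lists were chosen with earlier results of these data known. Of 68 regions within 50 kb of 16 cytokine genes, 22 (32.4%, 22.4–44.2) were in the SW rottlerin list alone, against 16.9% of the regions near any coding gene. Without *TNF*, *LTA* and *LTB* it was 15 of 52 (28.8%, 18.3–42.3). At the same genes 2.94%, 7.35% and 0% of the regions were in the SW DMSO, NS rottlerin and NS DMSO lists alone. Near any coding gene these shares were 3.98%, 7.56% and 7.04%.

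**Figure D4:**
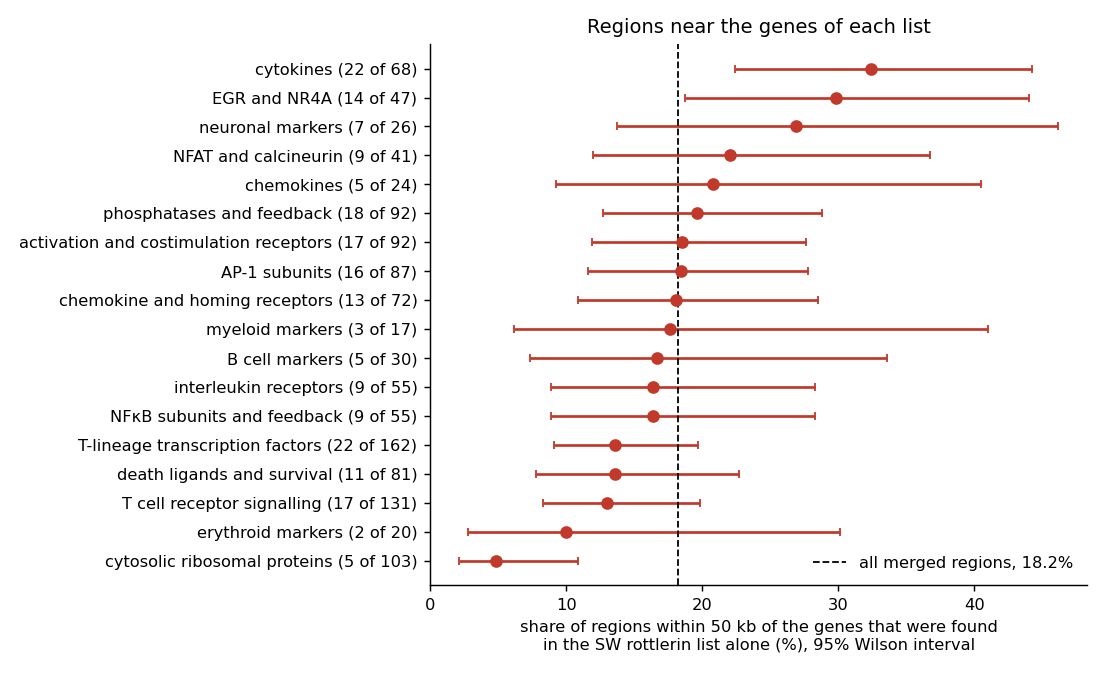
Share (%) of the merged regions within 50 kb of the genes of each list that were found in the SW rottlerin list alone, with 95% Wilson intervals and the counts in brackets. The dashed line at 18.2% is the share among all merged regions. The intervals of cytokines (32.4%) and of EGR and NR4A genes (29.8%) lie wholly above it, and that of ribosomal protein genes (4.85%) lies wholly below.

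At *TNF*, the inflammatory cytokine, and its neighbours *LTA* and *LTB* (lymphotoxins), 7 regions were called in the SW rottlerin list alone. The promoter region, centred 87 bp before the first start, scored 132. The next highest, 13.3 kb upstream, scored 84, and the others scored 17 to 33. They were interspersed with regions found in more lists. A region 6.93 kb upstream, for example, scored 181 in the SW rottlerin list, 96 in NS rottlerin and 64 in SW DMSO and had no NS DMSO peak.

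*IL2*, the T cell growth factor, had 1 selected region over its start, with a score of 20 and 3 NFAT words in 599 bp. *IL10*, a regulatory cytokine, had 5 of 9, with scores of 15 to 30, and 3 of these held an AP1 word. *CSF2* (GM-CSF) had 3 of 7, the strongest 40.9 kb downstream of its start with a score of 65, and *IL3* had 2 of 5, both shared with *CSF2*. *IL22* had 2 of 9, *IFNG* 1 of 6, and *IL4* and *IL13* shared 1. *IL5*, *IL21*, *CSF1* and *TGFB1* had none.

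**Figure D5:**
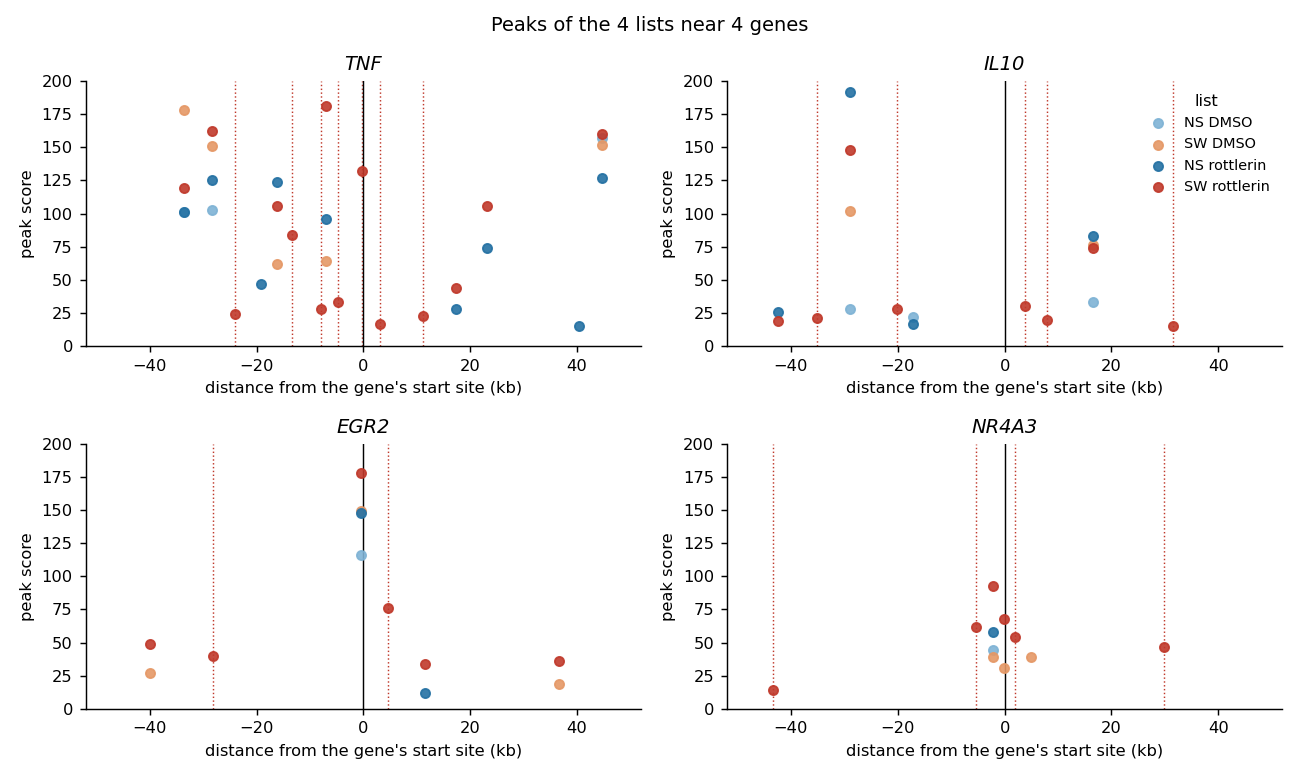
Score of every peak within 50 kb of *TNF*, *IL10*, *EGR2* and *NR4A3* in the 4 lists, against distance from the gene's start in kb (the median of its annotated starts, negative upstream). Dotted red lines mark regions found in the SW rottlerin list alone, such as the *TNF* promoter with a score of 132, and a point may hide another of nearly the same score.

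The EGR and NR4A genes, which encode zinc finger and orphan nuclear receptor factors induced early in activation, had the next largest share, 14 of 47 regions (29.8%, 18.7–44). *NR4A3* had 4 of 7, with scores of 14, 62, 54 and 47, none of them at its start, where peaks scored 68 in the SW rottlerin list and 31 in SW DMSO. *NR4A2* had 2 of 3, *NR4A1* 2 of 13, *EGR2* 2 of 6 and *EGR3* 2 of 7. *EGR2* had selected regions 4.65 kb downstream of its start, with a score of 76, and 25.9 kb upstream, with a score of 40. Its promoter was called in all 4 lists with scores of 116 to 178. *EGR1* had 1 of 4 (score 100), *NAB2*, a corepressor of EGR factors, 1 of 5 and *EGR4* 0 of 2.

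The other regulators of activation were near the background. NFAT and calcineurin genes had 9 of 41 (22%, 12.0–36.7). *NFATC1* had 2 of 4, a promoter region of 1005 bp with a score of 64, 3 NFAT and 3 NFκB words, and 1 lying 47.4 kb downstream with a score of 48. *NFATC2* and *CABIN1* (a calcineurin inhibitor) had 2 each, *NFATC3*, *NFAT5* and *PPP3CC* 1 each, and *RCAN1* and *PPP3CA* none. AP1 genes had 16 of 87 (18.4%, 11.6–27.8). *BACH2* had 6 of 15 with scores of 13 to 96, *FOSL2* 3 and *FOS* 2, and *FOSB*, *FOSL1*, *JUNB*, *MAF* and *MAFF* 1 each, the last with a score of 61 at its start. *JUN*, *JUND*, *BATF*, *BATF3* and *ATF3* had none. NFκB genes had 9 of 55 (16.4%, 8.9–28.3), 2 at *NFKB2*, 2 at *REL*, 1 each at *RELA*, *NFKBIA*, *NFKBIE*, *NFKBIZ* and *TRAF1*, and none at *NFKB1*, *RELB*, *TNFAIP3*, *TNIP1* and *BCL3*.

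Feedback genes, mostly phosphatases and inhibitors of kinase and cytokine signals, had 18 of 92 (19.6%, 12.7–28.8). *DUSP5*, a nuclear ERK phosphatase, had 4 of 9. *DUSP6*, *PIM1* and *TRIB3* had 2 each, *DUSP2*, *DUSP4*, *DUSP22*, *SOCS1*, *SOCS3*, *TRIB1*, *TRIB2* and *SPRED1* 1 each, and *DUSP1*, *DUSP10*, *CISH* and *SPRY1* none. The *SOCS3* region lay 204 bp from its start and scored 55, and that near *TRIB2* scored 77.

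Surface receptors and their ligands varied gene by gene. Activation and costimulation genes had 17 of 92 (18.5%, 11.9–27.6). *TNFSF14*, the ligand LIGHT, had 4 of 10, of which 1 lay 96 bp from its start with a score of 88. *TNFRSF9* (4-1BB) had 3 of 7, 1 of them 26 bp from its start with a score of 38, 1 AP1 and 2 NFκB words. *HAVCR2* (TIM-3) had 3 of 8, *CTLA4* and *CD40LG* 2 each, *CD28*, *CD27* and *LAG3* 1 each. *CD69*, *ICOS*, *TNFRSF4*, *TNFRSF18*, *PDCD1* and *TIGIT* had none.

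Among interleukin receptors, with 9 of 55 (16.4%), *IL18R1* had 3 of 5 (scores 35, 59 and 63), *IL21R* 2, *IL2RA*, *IL4R*, *IL6R* and *IFNGR1* 1 each, and *IL2RB*, *IL2RG*, *IL7R* and *IL12RB2* none. Chemokine and homing receptors had 13 of 72 (18.1%), among them 3 at *ITGA4*, 2 each at *CCR6*, *CCR9* and *CXCR5*, 1 each at *CCR4*, *S1PR1* and *ITGAL*, and none at *CCR7*, *CXCR3* and *CXCR4*. Chemokines had 5 of 24 (20.8%), with 2 at *CCL1*, 1 each at *CCL22* and *CXCL10*, 1 shared by *XCL1* and *XCL2*, and none at *CCL3*, *CCL4*, *CCL5*, *CCL20* and *CXCL2*. Death ligands and survival genes had 11 of 81 (13.6%). *CFLAR*, the caspase-8 inhibitor, had 4 of 9, *FASLG* and *BCL2L11* 2 each, *TNFSF10*, *BCL2* and *BIRC3* 1 each, and *FAS*, *BCL2A1*, *BCL2L1* and *MCL1* none. The *BCL2* region, 27.8 kb into the gene, scored 107.

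The lists of T cell receptor signalling, T-lineage and ribosomal protein genes were not counted as activation lists. T cell receptor signalling genes had 17 of 131 (13.0%, 8.3–19.8), with 5 of 14 at the kinase *FYN*, the strongest with a score of 87. T-lineage transcription factors had 22 of 162 (13.6%, 9.1–19.7), and both intervals include the 16.9% of regions near any coding gene. Among the 22, 3 each lay at *RUNX1* and *TOX* and 2 each lay at *IKZF1* and *IRF4*. The *IRF4* region 12.3 kb downstream of its start scored 90. Ribosomal protein genes had 5 of 103 (4.85%, 2.09–10.9), the lowest share, and no gene among them had more than 1.

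Few regions of any kind, 17 to 30 for each list, lay within 50 kb of genes of other tissues. B cell genes had 5 of 30 (16.7%), of which 4 lay near *PAX5*. Myeloid genes had 3 of 17 (17.6%) and erythroid genes 2 of 20 (10.0%), both near *EPOR*. Neuronal genes had 7 of 26 (26.9%, 13.7–46.1), with 2 each at *DLG4* and *GAD1*. Only the cytokine and the EGR and NR4A lists had a larger share. The wide neuronal interval includes the 16.9% of regions near any coding gene, and the B cell and myeloid shares were close to that value.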

How the data were processed

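FAIRE-seq peak lists of 4 Jurkat libraries were used. The study's methods name CutAdapt for trimming, Bowtie2 for mapping (to Hg19), Picard for removal of duplicates and MACS2 with its Broad option for calling peaks against the total input. A list deposited by the authors holds 1 library, with positions, a score, a fold enrichment (ratio to input) and p and q values as −log10. Depth and read counts are unknown.

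Peaks off chromosomes 1 to 22, X and Y were left out (28 merged regions). Mid-points were placed on GENCODE release 44 (GRCh37), with UTRs and exons taking precedence over introns, and these over promoters (within 1 kb before a start), upstream (to 10 kb) and intergenic sequence. Exact words were sought on both strands, in the central 300 bp for shares of regions and over the whole region for counts at single named regions. The members and lists were chosen with earlier results of these data known. Genes were named by rule: the 20 highest-scoring regions, the genes with most regions, list genes with 2 or more (all genes of activation lists), and the lowest-scoring regions and strongest composites. Some genes and regions that this rule names are not reported here. The steps were tested on simulated data, and 11 of 11 recovered what was planted. Alternatives changed the number of peaks, the overlap, the lists used, the window and the words. Analyses used pysam 0.24.0 and scipy 1.17.1 under Python 3.11.15.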

Additional observations from a re-analysis of the deposited data

How the results depend on the processing

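The 8 main results (the number of regions and 7 shares of them) were recomputed under the alternatives, and 49 of 93 values kept within the interval, or for the number within 1.5 times, of the reported one. With the same number of peaks in each list, 2541 regions remained, 74.9% in introns or intergenic sequence, 14.3% CpG-island-like, 41.3% within 10 kb of a region of another list and 6.93% with an ETS word. The NFAT share was then 32.9% and the AP1 share 16.7%. With the higher-scoring 50% of each list, these were 3558 regions, 73.5%, 17.4%, 27.4% and 8.07%, with NFAT words in 29.2% and GATA words in 37.7%. When sharing required 50% reciprocal overlap, peaks of the SW rottlerin list were counted in place of merged regions, and 9670 remained. Introns and intergenic sequence held 76.2% of them, and CpG-island-like sequence made up 13.8%. AP1, NFAT and GATA words were in 15.5%, 30.1% and 38.4%. Within 10 kb of another list's peak lay 53.6%, a share that rises by construction, since peaks with a smaller overlap are then kept. Leaving out regions within 1 kb of another list's lowered the share within 10 kb to 36.0%, by construction.

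Without the NS DMSO list, the CpG-island-like share was 10.8%, that within 10 kb 36.9% and that with AP1 words 16.0%. Without the SW DMSO list, the share within 10 kb was 36.6%, and AP1, NFAT and GATA words were in 21.6%, 31.4% and 37.2%. Without the NS rottlerin list, 77.3% lay in introns or intergenic sequence, 11.7% were CpG-island-like, 33.9% lay within 10 kb, and AP1, NFAT, ETS and GATA words were in 15.9%, 28.3%, 7.74% and 41.3%. In the central 500 bp, AP1, NFAT, ETS and GATA shares were 21.0%, 43.7%, 7.91% and 52.6%, and in the central 200 bp 14.2%, 24.3%, 5.32% and 30.9%, as the amount of DNA searched changes. With promoters placed first, introns and intergenic sequence held 72.8%. The words GGAAAA and GGAAGT, chosen after seeing the data, were in 40.6% and 25.1%. The cause of the other changes was not tested. No value moved beyond its interval with a q-value limit of 0.05, on the autosomes alone or with touching peaks kept apart.

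Each list is 1 library of unknown depth, and the SW rottlerin list is the longest, so a region that was not called in another list was not shown to be closed there. No paired analysis was possible because each group holds 1 library and the results come from no test. Leaving out a replicate was not possible for the same reason.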
